A study of Homo sapiens with 6 samples.

Results

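The zinc-finger gene clusters of chromosome 19 are a pair of long arrays of genes for KRAB zinc-finger proteins, 1 on each side of the centromere. They were taken by position in hg19, as the 40 kb bins lying wholly between 19.9 and 24.5 Mb in band 19p12 and between 52.3 and 58.7 Mb in band 19q13.4. This gave 114 bins in 19p12 and 159 in 19q13.4, or 273 of the 1479 bins of chromosome 19 and of the 77403 bins of the genome. Chromatin contacts had been measured by Hi-C, a method that cuts fixed chromatin, joins DNA ends that lay close together in the nucleus and sequences the junctions as read pairs. The cells were LNCaP, an established line from a prostate cancer metastasis, and they were transfected with a pool of siRNAs at 20 nM, either non-targeting (control siRNA) or against CTCF, the DNA-binding protein that holds many chromatin loops and domain borders (CTCF siRNA). A second transfection followed at 72 h, and cells of both groups were collected at 144 h. There were 2 libraries of control siRNA and 4 of CTCF siRNA. Of the latter, the libraries numbered 1.1 and 2.1 carry no explanation of how they relate to replicates 1 and 2. The authors pooled the libraries into 1 contact map and 1 list of topologically associating domains (TADs, stretches of a chromosome with more contacts inside than out) per condition. No difference between the conditions could therefore be set against the spread between replicates, and all intervals cover counting error only.

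KRAB zinc-finger proteins are the largest family of transcription factors in mammals. Their tandem zinc fingers read DNA, often that of transposable elements, and their KRAB domain recruits TRIM28 (also called KAP1), which brings the methyltransferase SETDB1 and other silencing proteins to the site. The family grew by local duplication of genes, so that neighbours are similar in sequence, and many of its gene clusters themselves carry repressive chromatin. ZNF91 and ZNF93 in 19p12 are known for binding SVA and LINE elements.

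By gene symbol, 573 of 20163 annotated protein-coding genes of the genome carried a zinc-finger name, and 265 of them lie on chromosome 19. The symbol does not tell whether a gene holds a KRAB domain, so other zinc-finger genes are counted too. The 19p12 cluster (chr19:19920001-24480000, 4.56 Mb) held 37 protein-coding genes, of which 34 or 91.9% were zinc-finger genes, at 8.11 genes per Mb. The label fits the 19q13.4 cluster (chr19:52320001-58680000, 6.36 Mb) less well, since 99 of its 215 protein-coding genes or 46.0% were zinc-finger genes. The other genes there included 12 of the LILR and LAIR families of leukocyte receptors, 7 KIR genes for receptors of natural killer cells, 9 NLRP genes for cytosolic sensors and reproductive proteins, and 3 VN1R genes for vomeronasal receptors. The stretch also held 59 annotated microRNA genes, 51 of them with a MIR symbol, and no SIGLEC or FPR gene had its centre there, by which genes were counted. The rest of the chromosome held 1225 protein-coding genes at 25.5 per Mb, with 130 zinc-finger genes or 10.6%. The 19q13.4 cluster was denser in genes than the rest, at 33.8 per Mb. GC content also differed, with a median over bins of 40.8% in 19p12, 45.6% in 19q13.4 and 50.1% in the rest. A Hi-C map gives no expression, so the cell type could not be checked against marker genes.

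After the contacts had been seen, 19q13.4 was divided at the starts of the genes DPRX and ZNF582. The proximal stretch (chr19:52320001-54080000, 44 bins) held 39 zinc-finger genes among 46. The middle stretch (chr19:54080001-56880000, 70 bins) held 12 among 106, together with the LILR, LAIR, KIR and NLRP genes. The distal stretch (chr19:56880001-58680000, 45 bins) held 48 among 63. The last bins of the middle stretch, from ZNF787 to ZSCAN5A, hold zinc-finger genes too, so its distal border is not one between gene families.

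The sequences that define the treatment are those of the siRNA pool, and they are shown because 1 of the 4 had no match in its target. CTCF lies on chromosome 16, and each of the other 3 matched 1 place in a coding exon on the plus strand of hg19, at chr16:67644951-67644969 (siRNA 1), chr16:67644838-67644856 (siRNA 3) and chr16:67645048-67645066 (siRNA 4). Each of these was found in 11 of 17 annotated transcripts of the gene. The sequence listed for siRNA 2 has 18 bases and matched neither the gene nor any of its transcripts. The sequences are given from 5′ to 3′.
CTCF siRNA 1: gaugaagacugaaguaaug
CTCF siRNA 2: ggagaaagaagaagagua
CTCF siRNA 3: gaagaugccugccacuuac
CTCF siRNA 4: gaacagcccauaaacauag

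Sequences that CTCF could read were looked for at the TAD boundaries of the clusters, since a loss of CTCF bears on these first. The CTCF core consensus, of 12 bases, was searched on both strands of hg19 in every bin, and a match is a description of letters, not a bound site. A match was found in 12 of 114 bins of 19p12 (10.5%), in 33 of 159 bins of 19q13.4 (20.8%) and in 334 of 1202 bins of the rest (27.8%). Within 19q13.4 the share was 6.82% in the proximal, 28.6% in the middle and 22.2% in the distal stretch. Of the 14 bins inside 19q13.4 that held a boundary of either list, 5 or 35.7% had a match. The bins of the boundaries at 52300000 and 19900000 lie just outside the clusters and had none. These 5 are printed with the core in capitals and 9 bases on each side, on the strand given.
Match at chr19:53863955-53863984, minus strand: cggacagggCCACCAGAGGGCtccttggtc
Match at chr19:54249737-54249766, minus strand: cggacacggCCACTAGAGGGCtccctggtc
Match at chr19:54296344-54296373, plus strand: tagtgtcgtCCACTAGATGGCagtggcacc
Match at chr19:56150573-56150602, minus strand: ggcctccacCCACCAGATGGCagtagcacc
Match at chr19:56907699-56907728, minus strand: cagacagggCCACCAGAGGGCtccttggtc

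The matches were not independent of each other in sequence. The stretch in the ZNF845 and ZNF525 bin at 53863955 and the one in the ZNF582 and ZNF583 bin at 56907699 were identical at 29 of 30 bases. Both resembled the match at 54249737 next to NLRP12, at 27 and 26 of 30 bases. The matches at 54296344 and 56150573 shared 20 of 30 bases, and the remaining pairs shared 12 to 15. The likeness of the former 3 thus ran beyond the core into the flanks. How reads from such repeated sequence were assigned was not tested.

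Contacts were read as observed over expected (O/E). The expected count came from 1 factor per bin and 1 per distance, fitted on chromosome 19 in each map, so that a bin's total contacts and the decay with distance were taken out. A value above 1 means more contacts than those factors give, and because each bin's total is fixed, an excess in one class comes with a deficit in another. A change between the maps can be understated, or appear in another class, for the same reason. The maps held 151973 contacts between bins of chromosome 19 in control siRNA and 949931 in CTCF siRNA. Usable bins numbered 109 of 114 in 19p12, all 159 in 19q13.4 and 752 of 1202 in the rest. The CTCF siRNA map held no contacts within the chromosome before position 9400001. Of the 1479 bins of the chromosome, 1042 had contacts in both maps. Windows of 1 Mb with too few usable bins were left out, so those of the rest began at 15000001. The gene counts of the rest take in the stretches without contacts.

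Depth rose less in 19p12 than elsewhere on the chromosome. A usable bin of 19p12 had a median of 167 contacts within the chromosome in control siRNA and 785 in CTCF siRNA, 4.7 times as many. In 19q13.4 the medians were 291 and 1842 (6.33 times), and in the rest they were 291 and 1807.5 (6.21 times). The share of contacts that stayed on chromosome 19, contacts within a bin left out, was 32.7% in 19p12 in control siRNA (exact binomial 95% interval 32.3 to 33.1%) and 48.7% in CTCF siRNA (48.5 to 49.0%). Contacts were summed over bins, so a pair within a part counted for both of its bins. The intervals take these as separate contacts and are too narrow for that reason. It was 45.4% (45.1 to 45.7%) and 67.8% (67.7 to 67.9%) in 19q13.4, and 48.9% and 69.4% in the rest. The AT-rich 19p12 cluster thus had the lowest share on its own chromosome in both maps. The part of GC content in these shares was not tested.

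Within 19p12, distant parts of the array met more often than distance gives. Over 2 Mb apart, 600 contacts were counted in control siRNA where 146.1 were expected, an O/E of 4.11 (Poisson 95% interval 3.78 to 4.45). In CTCF siRNA 2867 were counted where 667.8 were expected, an O/E of 4.29 (4.14 to 4.45). The ratio of the maps was 1.05 (exact binomial 95% interval 0.957 to 1.14), so a change was not detectable at this depth. Between 400 kb and 2 Mb the O/E was 1.79 (1.73 to 1.85) and 1.60 (1.58 to 1.63), a ratio of 0.897 (0.863 to 0.933). Up to 400 kb it was 0.746 (0.723 to 0.77) and 0.775 (0.764 to 0.786). The same distance classes in the rest of the chromosome stayed between 0.935 and 1.04 in both maps. The rest holds 752 of the 1023 usable bins on which the factors were fitted, which keeps its values near 1. Its pairs over 2 Mb also reach farther apart than those of 19p12. With an expected count from distance alone the O/E over 2 Mb in control siRNA fell to 2.2 and the ratio turned to 0.79, and without the last 1 Mb of the cluster the O/E was 5.24. How reads were assigned among the similar genes of this array was not tested.

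The long-range excess in 19p12 was not even. The cluster was cut into 4 runs of bins in order along the chromosome, a split chosen after seeing the data. The run with ZNF506, ZNF253 and ZNF93 (chr19:19920001-21080000) met the run at chr19:22240001-23360000 with an O/E of 5.1 (479 contacts, 4.65 to 5.57) in control siRNA and 4.97 (2223 contacts, 4.76 to 5.18) in CTCF siRNA. With the last run (chr19:23360001-24480000), farther away, it had 3.75 (3.16 to 4.42) and 4.15 (3.85 to 4.48). Neighbouring runs had between 1.36 and 1.88 in control siRNA and between 1.24 and 1.65 in CTCF siRNA, and contacts inside a run lay between 0.776 and 0.909 in both maps. All 4 runs were thus below 1 with themselves and above 1 with each other.

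**Figure D1:**
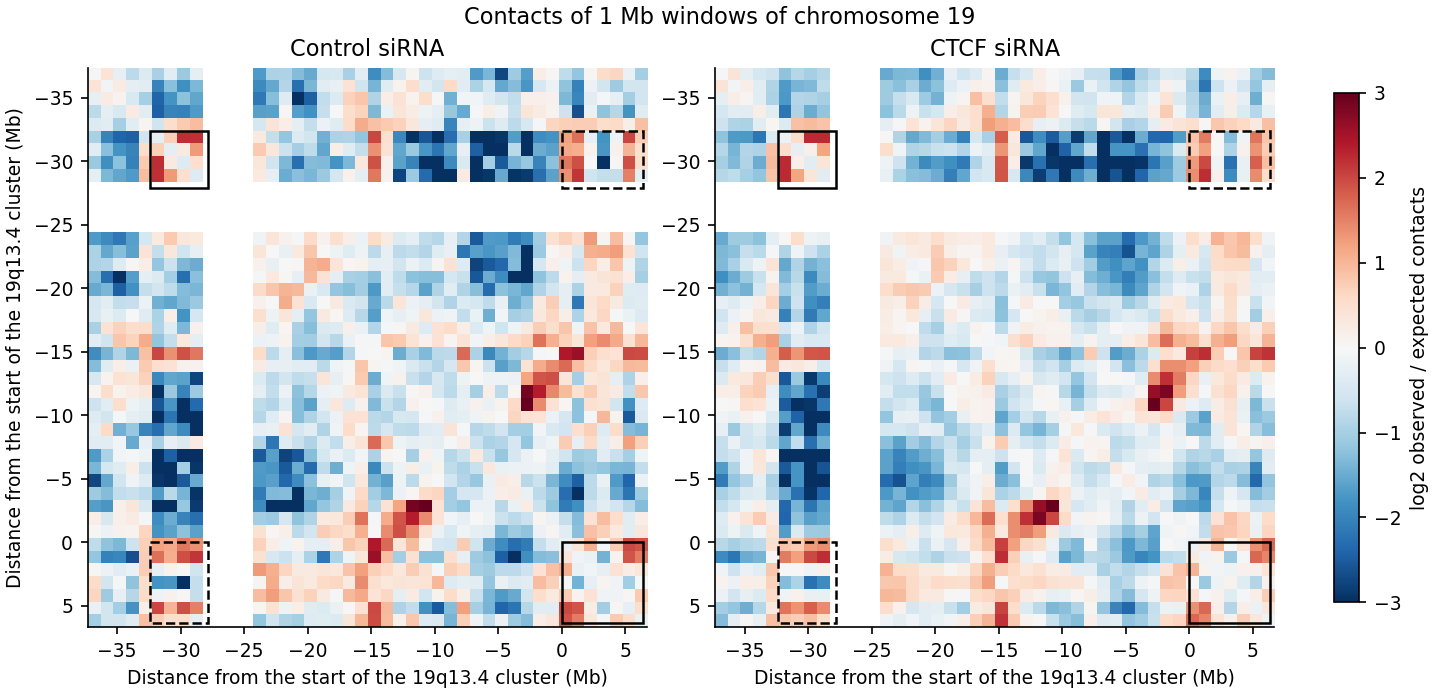
Contacts between 1 Mb windows of chromosome 19 as log2 of observed over expected, in control siRNA (left) and CTCF siRNA (right), with distance from the start of the 19q13.4 cluster in Mb on both axes. Solid boxes mark contacts within 19p12 and within 19q13.4, dashed boxes mark contacts between the clusters, and blank strips are windows with too few usable bins. The end of 19p12 falls in such a window, though it holds usable bins. The corners of the 19p12 box and both ends of the dashed box are red in both maps, and the blue bands beside 19p12 are its contacts with most windows of the rest, on both arms.

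In 19q13.4, both ends met each other more than they met the stretch between. The proximal and the distal stretch, both made mostly of zinc-finger genes and separated by the middle stretch of 2.8 Mb, had 551 contacts in control siRNA, an O/E of 4.04 (3.71 to 4.4). In CTCF siRNA they had 2277 contacts and an O/E of 3.16 (3.03 to 3.29), a ratio of 0.78 (0.711 to 0.858). Each of them met the middle stretch less than expected in control siRNA, with 0.86 for proximal and 0.861 for distal. In CTCF siRNA these values were 1.05 and 1.03, ratios of 1.22 (1.14 to 1.3) and 1.19 (1.12 to 1.27). These ratios take in adjoining bins, whereas proximal and distal bins are all over 2 Mb apart. Over 2 Mb, proximal with middle had 0.818 (0.71 to 0.937) and 0.867 (0.821 to 0.916), a ratio of 1.06 (0.915 to 1.23) that held 1. Middle with distal over 2 Mb had 0.835 (0.736 to 0.944) and 0.965 (0.922 to 1.01), a ratio of 1.16 (1.01 to 1.32). Beyond this floor of 2 Mb the distances were not matched to those of proximal with distal. The stretches were chosen on these contacts, so their levels are a description. Their values come from the main fit alone, and no alternative fit was run on them. Proximal with distal is part of the class over 2 Mb given next, whose value rested on the fit.

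Taken as a whole, contacts over 2 Mb within 19q13.4 had an O/E of 1.48 (1111 contacts, 1.4 to 1.57) and 1.3 (5883 contacts, 1.26 to 1.33), a ratio of 0.876 (0.821 to 0.934). This value rested on the fit. With factors fitted on pairs over 2 Mb alone, the O/E in control siRNA was 1.0 and the ratio 1.01. Between 400 kb and 2 Mb the O/E was 1.13 (1.1 to 1.16) and 1.09 (1.08 to 1.1), and up to 400 kb 0.913 and 0.941.

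The clusters met each other across the centromere. Between 19p12 and 19q13.4, 791 contacts were counted in control siRNA where 455.0 were expected, an O/E of 1.74 (1.62 to 1.86). In CTCF siRNA 3303 were counted where 1950 were expected, an O/E of 1.69 (1.64 to 1.75). The ratio was 0.974 (0.901 to 1.05), so no change was detectable at this depth. It lay below 1 beyond counting error with an expected count from distance alone (0.881) and with background between chromosomes subtracted (0.915). The O/E in control siRNA lay between 1.36 and 1.96 under all 7 alternatives. Assignment of reads among similar zinc-finger genes of the clusters was not tested.

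By stretch of 19q13.4, the contacts between the clusters ran from below to well above 1. With the proximal stretch 19p12 had an O/E of 3.29 (353 contacts, 2.96 to 3.65) in control siRNA and 3.0 (1311 contacts, 2.84 to 3.17) in CTCF siRNA. With the distal stretch it had 2.35 (2.08 to 2.64) and 2.47 (2.33 to 2.61). With the middle stretch it had 0.697 (0.593 to 0.814) and 0.726 (0.674 to 0.781). The separation of the stretches is built into their choice, and the 3 ratios of the maps had intervals that held 1. Median GC content over bins was 44.2% in the proximal and 48.4% in the middle stretch.

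Bins with and without a zinc-finger gene were set side by side within each stretch. The borders of the stretches were drawn on these contacts, so stretch and gene content cannot be ranked against each other. In the proximal stretch, bins with a zinc-finger gene had an O/E with 19p12 of 3.41 and 3.02, and bins without one had 2.59 and 2.9. In the distal stretch the bins without a zinc-finger gene had the higher values, 3.62 and 3.47 against 2.01 and 2.19. In the middle stretch, bins with a zinc-finger gene had 0.877 and 1.1, and the others 0.662 and 0.655. From the side of 19p12, bins with a zinc-finger gene had an O/E with 19q13.4 of 1.78 (1.64 to 1.94) and 1.75 (1.68 to 1.83). Bins of 19p12 without any protein-coding gene had 1.65 (1.44 to 1.88) and 1.6 (1.5 to 1.7).

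The other gene families of 19q13.4 differed in their contacts with 19p12. The 9 bins with LILR or LAIR genes had 9 contacts in control siRNA, an O/E of 0.319 (0.146 to 0.606), and 48 in CTCF siRNA, an O/E of 0.382 (0.282 to 0.507). Those same bins had 1.47 (1.31 to 1.64) and 1.3 (1.24 to 1.37) with the gene bins of the rest that hold no zinc-finger gene. The 5 bins with KIR genes had 0.62 (0.283 to 1.18) and 0.455 (0.302 to 0.657) with 19p12. The 15 bins with NLRP genes had 0.933 (0.657 to 1.29) and 0.764 (0.639 to 0.907), so only the deeper map placed them below 1. Bins with the 51 microRNA genes of MIR symbol, most of them in a primate-specific array known from the placenta, stood on the other side. Their 7 bins had 1.5 (1.09 to 2.02) and 1.4 (1.21 to 1.61). The 2 bins with VN1R genes, which lie in the proximal and distal stretches, had 1.99 (0.8 to 4.1) and 3.29 (2.32 to 4.54). In contact with 19p12, no family had a ratio of the maps whose interval left out 1. With other gene bins of the rest the VN1R bins had 4 contacts and 0.155 (0.0422 to 0.396) in control siRNA and 55 contacts and 0.528 (0.398 to 0.688) in CTCF siRNA, a ratio of 3.41 with a lower bound of 1.26. The bins of a family are neighbours and share contacts, and they were set apart after the data had been seen.

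**Figure D2:**
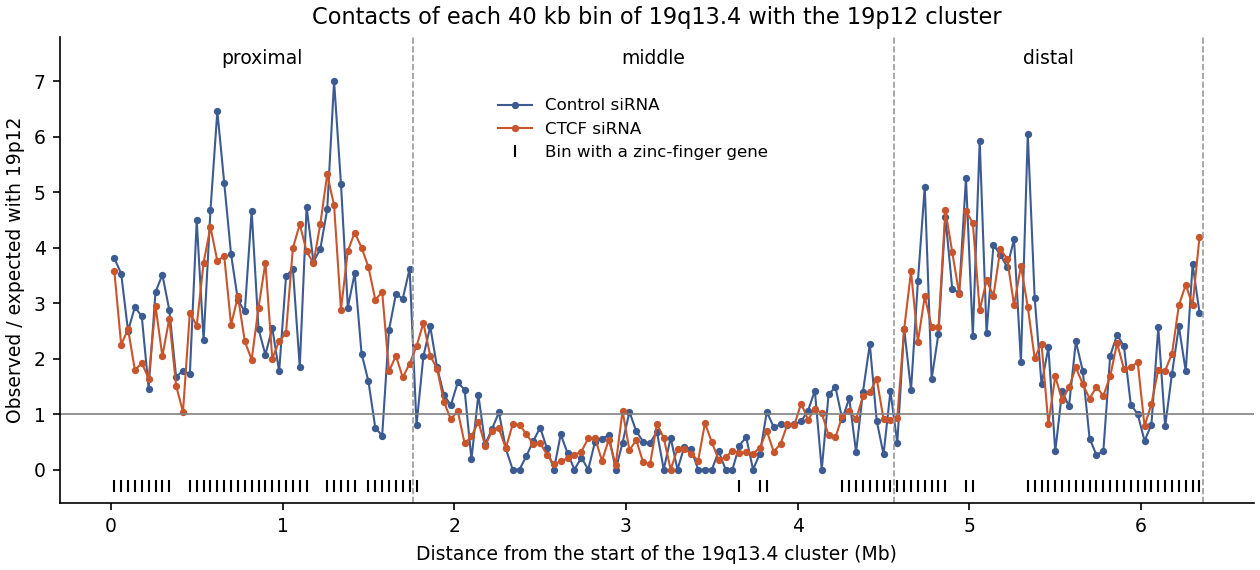
Observed over expected contacts of each 40 kb bin of 19q13.4 with the whole 19p12 cluster, against distance from the start of 19q13.4 in Mb, in control siRNA (blue) and CTCF siRNA (red). Dashed lines separate the proximal, middle and distal stretches and ticks mark bins with a zinc-finger gene. Both lines lie mostly above 1 at the ends and below 1 in the middle, with medians of 3.06 and 2.9 (proximal), 0.567 and 0.568 (middle) and 2.31 and 2.3 (distal) in control and CTCF siRNA.

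The contacts were also read bin by bin. The stretches were drawn on the same contacts and neighbouring bins are not independent, so the counts by stretch are a description. The share of such bins over the rest of the chromosome was not counted. Of the 44 proximal bins, 42 had more contacts with 19p12 than expected in both maps. Of the 45 distal bins 36 did, and of the 70 middle bins 9 did while 46 were below 1 in both. Of the 109 usable bins of 19p12, 90 were above 1 with 19q13.4 in both maps and 1 was below in both, with medians of 1.64 and 1.7. A bin of 19p12 had a median of 4.13 expected contacts in control siRNA and 17.6 in CTCF siRNA, so single bins were read mainly from the deeper map.

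The bins at the extremes were ranked in the CTCF siRNA map, so their values there are a description. In 19q13.4 the highest was chr19:53560001-53600000 with ZNF160, with 7 contacts and an O/E of 4.69 in control siRNA and 29 contacts and 5.32 (3.57 to 7.65) in CTCF siRNA. Next to it, chr19:53600001-53640000 with ZNF160, ZNF415 and ZNF347 had 25 contacts and 7.0, and 59 contacts and 4.76 (3.62 to 6.14). In control siRNA, which did not rank them, both were above 1 too, as were 42 of the 44 proximal bins, with a median of 3.06. The proximal stretch was drawn with both maps seen, so control siRNA is no independent check of these bins. The lowest were chr19:55560001-55600000 with RDH13, a retinol dehydrogenase, and EPS8L1, an actin regulator, with 1 contact in control siRNA and 0 in CTCF siRNA where 7.64 were expected, which allows an O/E of up to 0.483. The bin chr19:55240001-55280000 with KIR3DL3 and KIR2DL3 had 0 contacts in control siRNA, which allows up to 1.5, and 1 contact and 0.0863 in CTCF siRNA. In 19p12 the bins ranked highest held ZNF486 (chr19:20240001-20280000, 2 contacts and 1.4 in control siRNA, 24 contacts and 2.99 in CTCF siRNA) and ZNF254 (chr19:24280001-24320000, 5 contacts and 1.27, 31 contacts and 2.86). The lowest were chr19:24440001-24480000, without a protein-coding gene, with 0 contacts and then 8 (0.633), and chr19:23680001-23720000 with ZNF675, with 3 contacts (1.62) and then 10 (0.924). The order of the 19p12 bins in CTCF siRNA was therefore not that in control siRNA, where these bins rest on 5 contacts or fewer.

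**Figure D3:**
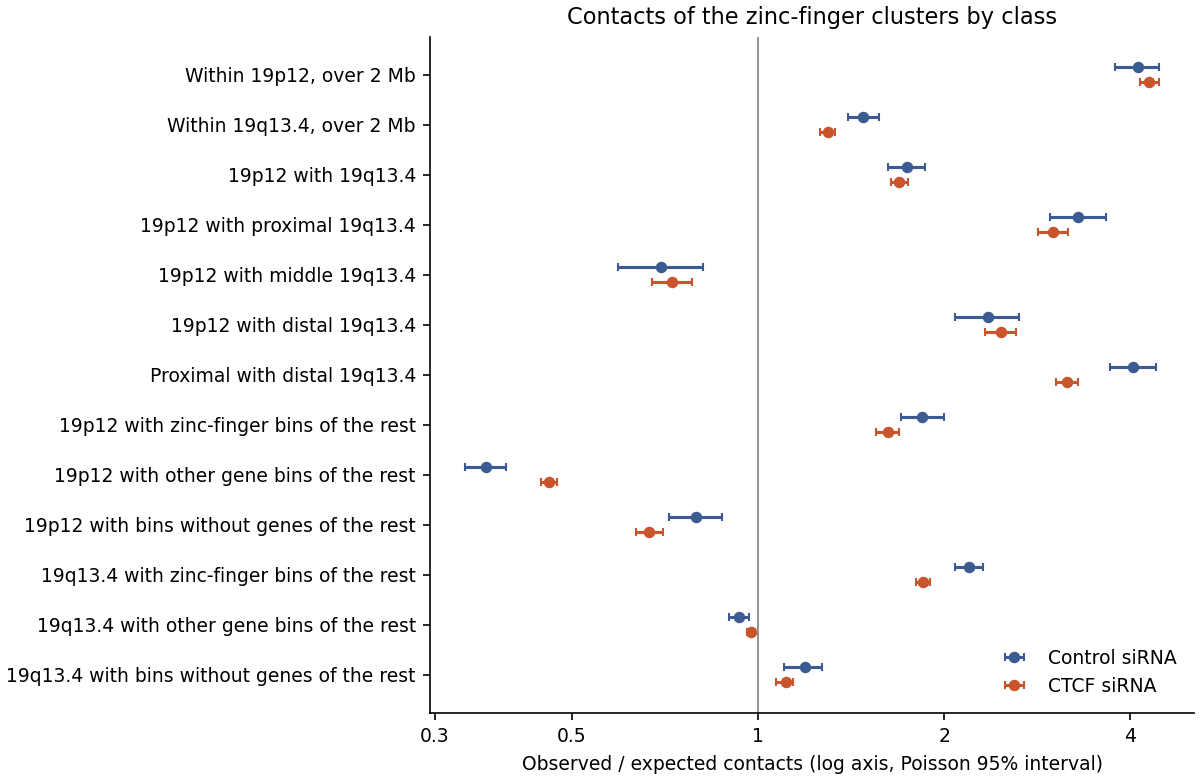
Observed over expected contacts of the clusters by class of partner, on a log axis, with Poisson 95% intervals that cover counting error, for control siRNA (blue) and CTCF siRNA (red). Contacts with zinc-finger bins and stretches lie right of 1, those of 19p12 with the middle stretch and with other gene bins lie left of 1, and most pairs of points lie closer to each other than to 1.

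With the gene-dense rest of the chromosome, over 2 Mb away, 19p12 had fewer contacts than expected. It had 1651 in control siRNA, an O/E of 0.625 (0.595 to 0.656), and 7370 in CTCF siRNA, an O/E of 0.629 (0.615 to 0.644), a ratio of 1.01 (0.954 to 1.06). This ratio was below 1 with an expected count from distance alone. It was above 1 with background between chromosomes subtracted. The deficit depended on what the partner held. With the 111 usable bins of the rest that hold a zinc-finger gene, 19p12 had 581 contacts and 1.84 (1.7 to 2.0) in control siRNA, and 2096 contacts and 1.62 (1.55 to 1.69) in CTCF siRNA. With the 501 bins that hold other protein-coding genes alone it had 0.363 (656 contacts, 0.336 to 0.392) and 0.459 (3715 contacts, 0.445 to 0.474). With the 140 bins without a protein-coding gene it had 0.793 (0.718 to 0.873) and 0.667 (0.634 to 0.701). The ratio of the maps was 0.879 (0.802 to 0.965) for zinc-finger bins, 1.26 (1.16 to 1.38) for other gene bins and 0.841 (0.754 to 0.94) for bins without genes.

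Base composition moved with these differences. Restricted to bins of the rest within the GC range of 19p12 (35.4 to 47.7%), the O/E in control siRNA was 2.14 (1.96 to 2.34) with 86 zinc-finger bins and 0.497 (0.422 to 0.582) with 121 other gene bins, so the order of the classes was as before. In CTCF siRNA these were 1.84 (1.75 to 1.93) and 0.436 (0.402 to 0.473). The rise with other gene bins after CTCF siRNA did not appear there, since the ratio turned to 0.878 (0.734 to 1.05), while that with zinc-finger bins was 0.86 (0.778 to 0.952). It was 0.815 (0.727 to 0.915) with bins without genes and 0.826 (0.771 to 0.886) with all bins of the range, so the lower contact in CTCF siRNA was not particular to zinc-finger partners. The O/E of 19p12 with all bins of the rest in that range was 1.05 (0.986 to 1.11) in control siRNA and 0.866 (0.838 to 0.894) in CTCF siRNA, so a value below 1 within that range was measured in the CTCF siRNA map alone.

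As a whole, the 19q13.4 cluster had no such deficit, but 2 of its stretches did. With the rest over 2 Mb away the proximal stretch had 0.921 (0.868 to 0.977) in control siRNA and 0.815 (0.793 to 0.838) in CTCF siRNA, a ratio of 0.884 (0.829 to 0.944). The distal stretch had 0.888 (0.832 to 0.948) and 0.873 (0.848 to 0.9), and the middle stretch 1.38 and 1.36. The whole cluster had 5165 contacts with the rest over 2 Mb away and an O/E of 1.14 (1.11 to 1.17) in control siRNA. In CTCF siRNA it had 25640 contacts and 1.11 (1.09 to 1.12), a ratio of 0.967 (0.939 to 0.997). Factors fitted on pairs over 2 Mb alone gave 0.956 in control siRNA and a ratio of 1.0. With zinc-finger bins of the rest it had 2.19 (1367 contacts, 2.08 to 2.31) and 1.85 (5582 contacts, 1.8 to 1.9), a ratio of 0.842 (0.793 to 0.894). This ratio lay between 0.816 and 0.869 under the alternatives. With other gene bins it had 0.932 (0.899 to 0.966) and 0.974 (0.959 to 0.989), and with bins without genes 1.19 (1.1 to 1.27) and 1.11 (1.07 to 1.14). The zinc-finger bins of the rest met each other over 2 Mb with 1.38 and 1.15, a ratio of 0.837 (0.737 to 0.952).

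The stretches of 19q13.4 divided in the same way against the rest. The proximal stretch had 3.11 (2.85 to 3.4) and 2.29 (2.18 to 2.4) with zinc-finger bins, a ratio of 0.735 (0.665 to 0.813), against 0.522 (0.475 to 0.572) and 0.585 (0.564 to 0.608) with other gene bins. The distal stretch had 2.48 (2.22 to 2.76) and 2.02 (1.91 to 2.14) with zinc-finger bins, a ratio of 0.815 (0.721 to 0.923), and 0.599 and 0.677 with other gene bins. The middle stretch met both kinds above 1, with 1.63 (1.49 to 1.77) and 1.59 (1.53 to 1.65) for zinc-finger bins and 1.3 (1.24 to 1.35) and 1.31 (1.28 to 1.33) for other gene bins. Its ratios of 0.976 (0.889 to 1.07) and 1.01 (0.96 to 1.05) showed no change beyond counting error. Lower contact with zinc-finger bins in CTCF siRNA was thus measured for the proximal and distal stretches, under the main fit alone. It was also measured for 19p12, where the ratio with bins without genes was as low, and among the zinc-finger bins of the rest themselves, in maps whose ratio of coverage was 4.7 in the AT-rich 19p12 and 6.33 in 19q13.4. The part of coverage in the ratios was not tested.

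Along the chromosome, 1 window of 1 Mb stood above the others for both clusters. It was chr19:37000001-38000000, in which 18 of 20 protein-coding genes were zinc-finger genes, from ZNF260 to ZNF570. With 19p12 it had 220 contacts and an O/E of 3.3 (2.88 to 3.77) in control siRNA and 769 contacts and 3.33 (3.1 to 3.58) in CTCF siRNA. With 19q13.4 it had 427 contacts and 3.55 (3.22 to 3.9), and 1541 contacts and 3.17 (3.01 to 3.33). This window lies on the long arm, so for 19p12 the partner is across the centromere. The next windows for 19q13.4 were its neighbours with 5 or more zinc-finger genes each, chr19:36000001-37000000 (1.93 and 1.8), chr19:38000001-39000000 (1.85 and 1.6) and chr19:35000001-36000000 (1.41 and 1.44), and the gene-free chr19:28000001-29000000 (1.45 and 1.54). For 19p12 the next were chr19:19000001-20000000, which holds ZNF101 and ZNF14 and adjoins the cluster (1.19 and 1.51), chr19:38000001-39000000 (1.18 and 1.13), chr19:28000001-29000000 (1.27 and 1.06) and chr19:36000001-37000000 (0.787 and 0.711).

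The window with the most zinc-finger genes, 23 of 37 at chr19:44000001-45000000 from ZNF575 to ZNF180, was not among these. It had 0.775 (31 contacts, 0.526 to 1.1) and 0.381 (58 contacts, 0.289 to 0.492) with 19p12. With 19q13.4 it had 1.43 (149 contacts, 1.21 to 1.68) and 0.895 (481 contacts, 0.817 to 0.979), so it went from above to below 1. In control siRNA its 1.43 with 19q13.4 was close to the 1.41 of chr19:35000001-36000000, a window named above. The window with 23 zinc-finger genes was named after its values were seen.

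Most other windows lay below 1. Of the 5 windows with at least 5 zinc-finger genes, 19q13.4 was above 1 in both maps with 4 and 19p12 with 2. Of the 24 other windows, 19q13.4 was above 1 in both maps with 8 and 19p12 with 2, without a margin for counting error. The median over those 24 was 0.951 and 0.881 for 19q13.4 and 0.319 and 0.353 for 19p12. The lowest window for 19p12, chr19:45000001-46000000, had 4 contacts and 0.0831 in control siRNA and 22 contacts and 0.118 in CTCF siRNA. This window, with 1 zinc-finger gene among 35, is in the gene-dense part of the long arm.

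**Figure D4:**
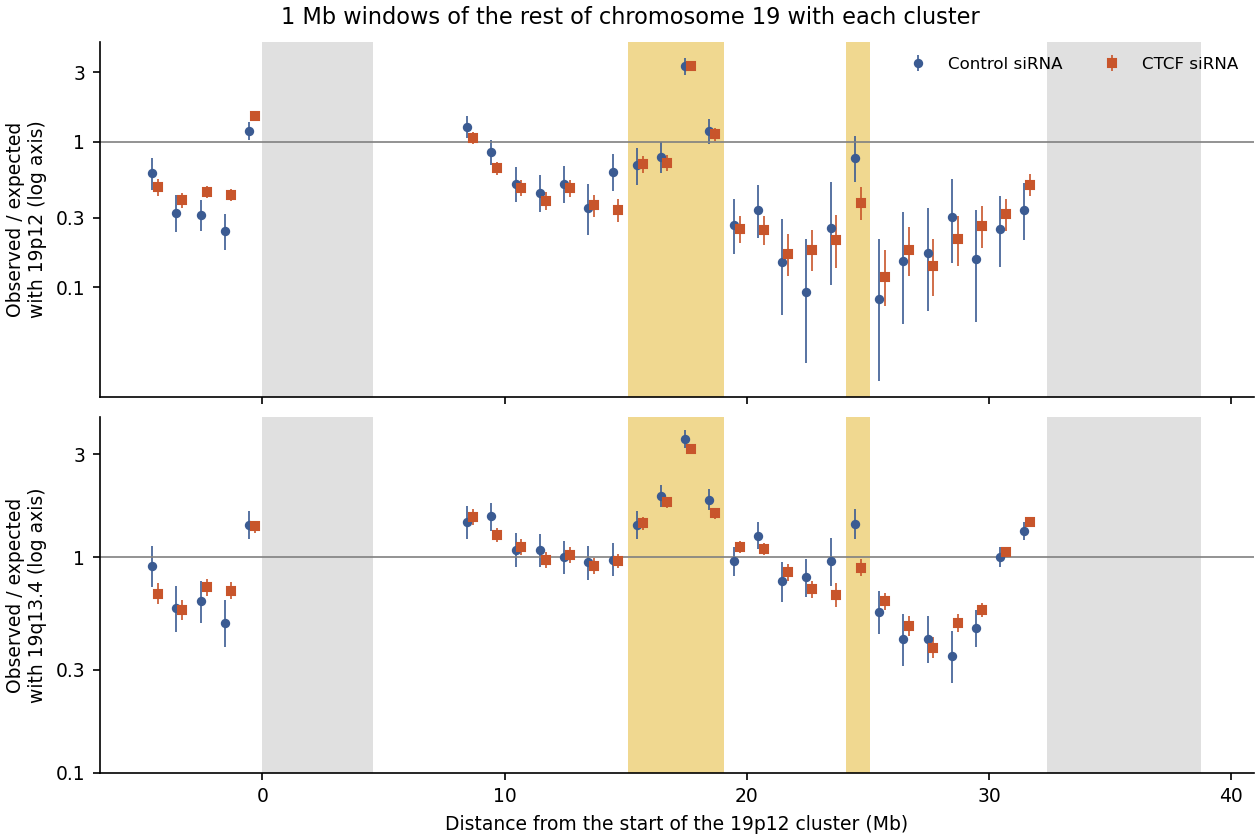
Observed over expected contacts of 1 Mb windows of the rest of chromosome 19 with 19p12 (top) and 19q13.4 (bottom), on log axes, against distance from the start of 19p12 in Mb, with Poisson 95% intervals. Grey bands are the clusters and yellow bands are windows with at least 5 zinc-finger genes. The highest point in both panels is the window with 18 zinc-finger genes, above 3 in both maps.

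Contacts with zinc-finger genes of other chromosomes were near the expected level. The 10 windows of 1 Mb with at least 5 zinc-finger genes on other autosomes had 148 contacts with 19p12 in control siRNA, an O/E of 0.873 (0.738 to 1.03), and 427 in CTCF siRNA, 0.958 (0.869 to 1.05). With 19q13.4 they had 274 contacts and 1.06 (0.939 to 1.19), and 821 contacts and 1.15 (1.08 to 1.24). The ratios of the maps, 1.1 (0.908 to 1.33) and 1.09 (0.948 to 1.25), had intervals that held 1. With 19p12, 3 of the 10 windows were above 1 in both maps, against 36.7% of all 2356 windows, and with 19q13.4 4 were, against 27.8%. The window that ranked highest for both was chr7:63000001-64000000 with ZNF722, ZNF727, ZNF735, ZNF679 and ZNF736. It had 1.69 (19 contacts, 1.02 to 2.63) and 2.13 (66 contacts, 1.64 to 2.7) with 19p12 and 1.51 in both maps with 19q13.4. Next for 19p12 were chr7:64000001-65000000 (1.34 and 1.4) and chr1:247000001-248000000 (1.0 and 1.13), and for 19q13.4 chr5:178000001-179000000 (1.4 and 1.49) and chr12:133000001-134000000 (1.2 and 1.53). Zinc-finger genes share near-identical stretches, and how reads were assigned among them was not tested.

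The TAD lists treated the clusters differently. The whole of 19p12 was 1 TAD in both lists, chr19:19900001-24580000, which was 4680 kb long and held 38 protein-coding genes, 35 of them zinc-finger genes. Of all TADs, 5 of 2864 in control siRNA (0.175%) and 18 of 2389 in CTCF siRNA (0.753%) were at least this long. In 19q13.4 there were 6 TADs in control siRNA, with a median length of 620 kb, and 9 in CTCF siRNA, with a median of 600 kb. The longest was the one over the proximal zinc-finger genes in both lists, chr19:52780001-53860000 with 24 zinc-finger genes among 30 in control siRNA and chr19:52780001-53900000 with 25 among 31 in CTCF siRNA. TADs covered 56.9% of 19q13.4 in control siRNA and 82.5% in CTCF siRNA. The last TAD ended at 56180000 in control siRNA and at 57700000 in CTCF siRNA. The cover rose from 2.1 to 2.8 Mb in the middle stretch, from 0 to 0.82 Mb in the distal stretch and from 1.52 to 1.64 Mb in the proximal stretch. The CTCF siRNA map was deeper, with 6.33 times the median contacts per bin in 19q13.4. The part of depth in the TAD lists was not tested.

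Boundaries of the clusters were maintained, in the sense that a boundary of the other list lay within 40 kb. The 1 boundary of 19p12, at 19900000 in the bin with ZNF506, was at the same position in both lists. All 8 control boundaries of 19q13.4 were maintained, so 0 of 9 in the clusters were lost, where 47.4% of all control boundaries were lost. Elsewhere on chromosome 19, 20 of 61 or 32.8% were lost. Of 11 CTCF siRNA boundaries of 19q13.4, 3 or 27.3% were gained, against 36.9% of all CTCF siRNA boundaries and 29 of 70 or 41.4% elsewhere on chromosome 19. The count of 0 rests on the distance allowed. When boundaries had to touch, 4 of 8 were lost and 7 of 11 gained in 19q13.4 (63.6%), near the 60.6% lost and 52.7% gained over all chromosomes under that rule, since several pairs, such as 53860000 in control siRNA and 53900000 in CTCF siRNA, lay 40 kb apart.

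The strength of the boundaries was read as an insulation value, the log2 of O/E across a bin minus that within its flanks of 400 kb, where a lower value means fewer contacts across. Values carry a counting SD. The maintained boundaries of 19q13.4 had a median change of 0.30 after CTCF siRNA and 7 of 8 were higher (87.5%), meaning more contacts across them. The 22 maintained boundaries of the rest of the chromosome with a value had a median of 0.08 and 68.2% were higher, and the 1476 of all chromosomes had 0.35 and 80.2%. The share in 19q13.4 was thus near that of all chromosomes. The largest change was at 52300000, in the bin with FPR1, FPR3 (formyl peptide receptors) and ZNF577, where the value went from -1.21 ± 0.11 to -0.53 ± 0.04, a change of 0.68 ± 0.12. The next was at 54940000 in TTYH1, a gene for a chloride channel, from -0.84 ± 0.10 to -0.20 ± 0.03, a change of 0.64 ± 0.11. Neither bin held a match to the CTCF core consensus. The deepest boundary, at 56180000 with CCDC106, the splicing factor gene U2AF2 and the endocytosis gene EPN1, went from -1.93 ± 0.14 to -1.71 ± 0.05, and stayed the lowest bin of both clusters.

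The bins with a printed match to the consensus did not all change in the same way. The value changed by 0.51 at 54260000 next to NLRP12, by 0.45 at 54300000 in NLRP12 and by 0.17 at 53860000 in the bin with ZNF845 and ZNF525. It changed by 0.06 at 56140000 with ZNF865, ZNF784, ZNF580 and ZNF581, and by 0.03 at the gained boundary 56900000 with ZNF582 and ZNF583. The first and last of these matches, near NLRP12 and in the ZNF582 bin, were identical at 26 of 30 bases. The bins at 54260000 and 54300000 are neighbours and share contacts.

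Of the gained boundaries, 1 was accompanied by a large fall. It was at 54620000, in the bin with OSCAR (a receptor of osteoclasts), NDUFA3 (a subunit of respiratory complex I), TFPT and PRPF31 (a splicing factor), where the value went from -0.31 ± 0.08 to -0.99 ± 0.03, a change of -0.69 ± 0.09. At 57700000, in the bin with ZNF264, it went from -0.25 ± 0.10 to -0.42 ± 0.04, a change of -0.17 ± 0.10. At the 19p12 boundary, in the bin with ZNF506, the value also fell, from -0.39 ± 0.12 (169 contacts across) to -0.71 ± 0.05 (910 contacts across), a change of -0.32 ± 0.13. The boundary that opens the long TAD of zinc-finger genes was thus deeper in CTCF siRNA, where most boundaries of 19q13.4 were shallower. Insulation values carry no factor per bin. This boundary parts 19p12, where median contacts per bin were 4.7 times as many in CTCF siRNA, from the rest, with 6.21 times. The part of coverage in this fall was not tested.

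**Figure D5:**
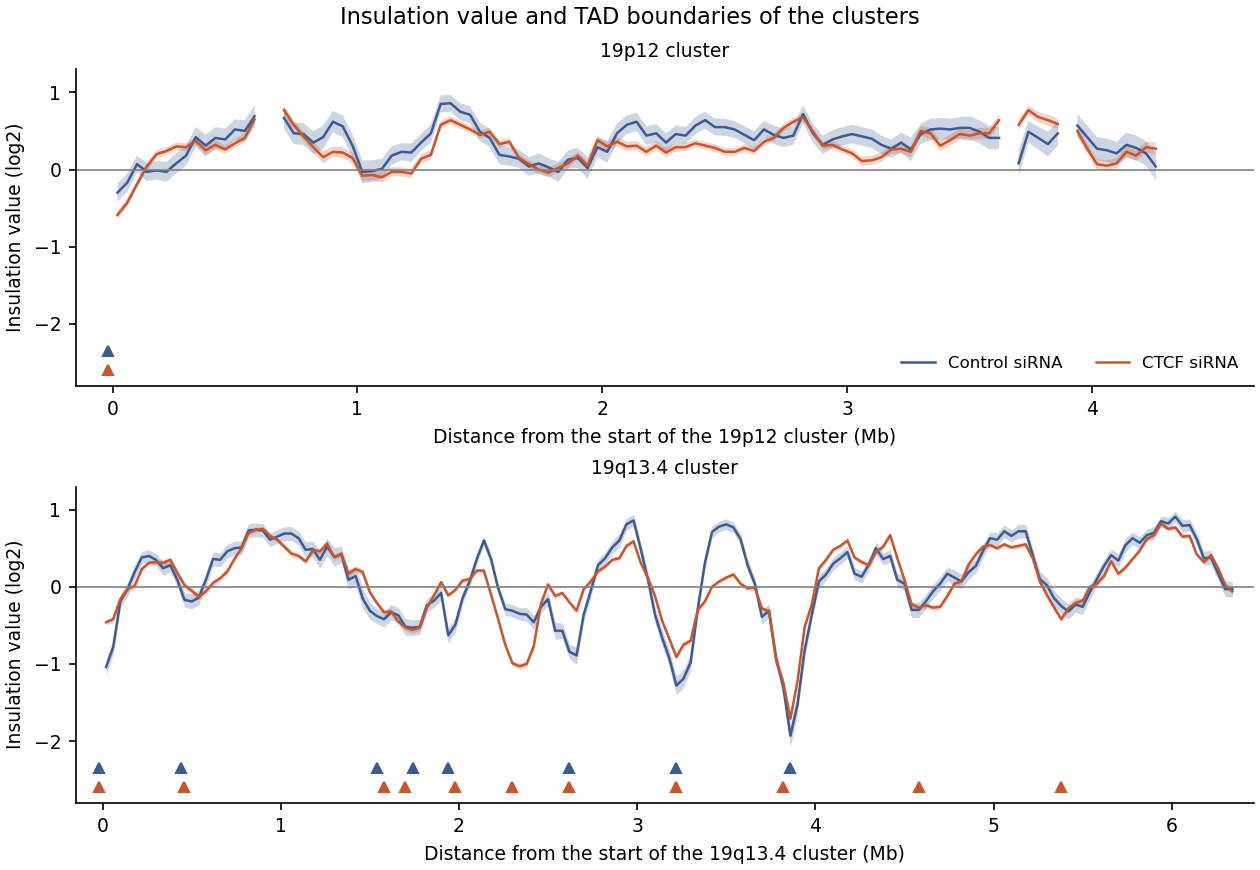
Insulation value (log2) of 40 kb bins along 19p12 (top) and 19q13.4 (bottom) against distance from the start of each cluster in Mb, in control siRNA (blue) and CTCF siRNA (red). Bands show ± 1 counting SD, gaps are bins without a value, and triangles mark TAD boundaries of each list. The lowest value in 19p12 is -0.59, and those of 19q13.4 reach -1.93 and -1.71 at the deepest boundary.

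Inside the clusters the insulation value was flatter in 19p12 than in 19q13.4. Over 103 bins of 19p12 it had an SD of 0.22 in control siRNA and 0.23 in CTCF siRNA, and 0 and 1 bins reached -0.5 or lower. Over 159 bins of 19q13.4 the SD was 0.54 and 0.46, and 20 and 17 bins reached -0.5. Most of those, 16 and 15, were in the middle stretch with its 106 genes, while the distal zinc-finger genes had 0 in both maps. In the rest of the chromosome 200 and 150 of 706 bins did. The median counting SD of a bin was 0.13 in 19p12 and 0.09 in 19q13.4 in control siRNA, and 0.06 and 0.03 in CTCF siRNA.

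With flanks of 400 kb, few bins of the clusters changed by at least 0.5. In 19p12, 1 of 103 bins was higher by that much (0.971%) and 0 were lower, where 12.9% of 61628 bins over all chromosomes were higher and 3.77% lower. In 19q13.4, 4 of 159 were higher (2.52%) and 9 were lower (5.66%). In the rest of chromosome 19 the shares were 9.49% and 2.83%. The share of bins that rose was thus below the background in both clusters, and the share that fell was below it in 19p12 and above it in 19q13.4. The number that rose in both clusters moved with the flank, from 5 to 15 (5.66%) with flanks of 200 kb and to 1 (0.403%) with flanks of 800 kb, where the rest of the chromosome had 10.8% and 11.1%. The bins that fell in 19p12 went from 0 to 5 of 106 (4.72%) with flanks of 200 kb and were 0 with flanks of 800 kb, and those in 19q13.4 went from 9 to 8 and 9. In the rest of the chromosome 5.29% fell with flanks of 200 kb and 1.99% with 800 kb, against 4.72% and 0% in 19p12. The median change was -0.08 in 19p12 and -0.01 in 19q13.4, against 0.02 over all chromosomes.

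All 9 bins that fell were in the middle stretch, in 2 runs of neighbours that share contacts. The run at chr19:54600001-54720000 holds OSCAR to RPS9, among them CNOT3, a subunit of the CCR4-NOT deadenylase, and TSEN34, a subunit of the tRNA splicing endonuclease, and includes the gained boundary. Its 3 bins changed by -0.69, -0.69 and -0.64, from between -0.36 and -0.31 to between -1.03 and -0.99. The run at chr19:55680001-55920000, from SYT5 to UBE2S, holds no boundary in either list. Its 6 bins had between 0.31 and 0.81 in control siRNA and between -0.19 and 0.16 in CTCF siRNA, so the excess of contacts across this interior was smaller in the CTCF siRNA map. The largest change there was -0.71 ± 0.08, in the pair of bins from PTPRH, a receptor phosphatase, to BRSK1, a kinase. The bins that rose in 19q13.4 were those with the boundaries 54260000 and 54940000 and the neighbours of the boundaries 52300000 and 54940000. In 19p12 it was the bin chr19:23600001-23640000 (0.08 ± 0.17 to 0.58 ± 0.07). None of the 9 held a zinc-finger gene, where 12 of the 70 middle bins do, and with flanks of 200 kb 3 of 158 zinc-finger bins of the clusters fell.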

How the data were processed

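Hi-C maps of LNCaP were compared between control siRNA (2 libraries) and CTCF siRNA (4 libraries), pooled by the authors into 1 map per condition. Per the methods, DNA was cut with BglII, reads were mapped to hg19 with bowtie and checked for artefacts with HiCUP, and a hidden Markov model on the directionality index gave the TADs. The submitters' processing notes name FastQC 0.11.2, Bowtie 1.1.0, SAMtools 1.2 and Picard 1.121. Each deposited contact value is another unit than a raw count, namely a read-pair count multiplied by the authors with a factor that goes by the position of each bin and is the same at that position on every chromosome. It differed from 1 between positions 9400001 and 48120000, with values up to 51.7 in control and 2.49 in CTCF siRNA. What this factor corrects for is not stated. The paper names bias offsets and mapability tracks for its search for significant contacts, without linking them to this factor. The factor ranged from 0.52 to 1.69 (control) and 0.405 to 1.48 (CTCF siRNA) in 19p12 and was 1 in 19q13.4. The comparisons had been planned for raw counts. Counts were recovered by division, and 99.907% (control) and 99.97% of values were then whole numbers, with a tolerance of 0.01 plus 0.05% of the value. The deposited TAD lists give start and end coordinates.

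A bin was used where its contacts with other bins of the chromosome were at least 10% of the median over the chromosome, in each map. Expected counts were fitted iteratively, contacts within a bin left out. Between chromosomes they came from the totals of each bin and window. Poisson and binomial intervals at 95% are exact. Facing TAD edges at most 100 kb apart were 1 boundary. Insulation values took expected counts from distance alone and needed 50% of bin pairs usable. A zinc-finger gene has a symbol that starts with ZNF and a digit, ZSCAN, ZKSCAN, ZIM or ZFP, or is ZIK1 or PEG3. Genes came from GENCODE on GRCh37. Calculations used Python 3.11.15, numpy 2.4.6, scipy 1.17.1, pandas 2.3.3 and matplotlib 3.10.9 and were tested on simulated maps. Positions were named by rule: per class of boundary the 2 with the largest change in insulation and at least 50 contacts expected across, the longest TADs, the 2 bins at each extreme of contact with the other cluster, and the 5 windows of the rest and 3 of other chromosomes with the highest lower value of the maps. The deepest boundary, the lowest window, the window with most zinc-finger genes, the bins past 0.5 and the boundaries with a consensus match were added after their values were seen. The clusters, gene lists and tests were chosen with earlier results of these data known.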

Additional observations from a re-analysis of the deposited data

How the results depend on the processing

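No paired analysis was possible because the authors pooled the libraries of a condition into 1 map, and for the same reason no replicate could be left out. Of 170 alternative values, 126 were counted as the same as the main value. For an O/E or ratio this means the same side of 1 beyond counting error, or intervals that held 1 both times. A share or median had to lie inside the main interval, and a count within a set factor of the main count. Among the others, 22 moved past these limits and 9 reversed direction. Another 6 had an interval that no longer left out 1, and 7 had one that newly did. Single stretches of 19q13.4 were not among the 170. The causes of the shifts were not tested. With an expected count from distance alone, the ratio of the maps became 0.79 within 19p12, 0.881 between the clusters, 0.89 for 19p12 with the rest and 0.994 for 19q13.4 with the rest. With pairs over 2 Mb fitted alone, 19q13.4 had an O/E in control siRNA of 1.0 within itself and 0.956 with the rest, and ratios of 1.01 and 1.0. Subtracting background between chromosomes gave ratios of 0.915 between the clusters and 1.08 for 19p12 with the rest. With bins of the rest in the GC range of 19p12, its O/E with them was 1.05 and the ratio 0.826, and for other gene bins the ratio was 0.878. For 19q13.4 with the rest, the ratio was 0.989 with separate curves within and across arms, 0.97 with bins of at least 50% of the median cis count and 0.973 with gene bins alone, each with an interval that held 1. With bins of at least 2 zinc-finger genes, the ratio for 19p12 was 0.886, and its interval held 1. With the values as deposited, the ratio of 19q13.4 with other gene bins was 1.0.

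In TADs and insulation, 0 TADs lay wholly inside 19p12 in either list. When boundaries had to touch, 4 were lost and 7 gained in the clusters, against 60.6% lost and 52.7% gained over all chromosomes. The median insulation change with flanks of 200 kb was -0.01 in 19p12 and 0.02 in 19q13.4, and with counts divided by the factor per bin -0.16 and -0.05. With bins of at least 50% of the median it was -0.24 in 19p12, from 3 bins. The 5 bins that rose by 0.5 became 15 with flanks of 200 kb, 1 with 800 kb, 3 with deposited values, 3 with divided counts and 8 with neighbouring bins left out. Cis shares (control, CTCF siRNA) were 37.6% and 54.3% in 19p12 and 51.7% and 73.5% in 19q13.4 with contacts within a bin included, and 33.2% and 44.6%, and 45.0% and 67.5%, with deposited values. The control O/E of 19p12 with zinc-finger windows of other chromosomes was 0.796 over 21 windows with at least 3 such genes, 0.708 over 4 with at least 8, 0.844 with deposited values and 0.815 without the window with the most contacts. The control map limits single bins, where a few contacts were expected.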
